A study of Mus musculus with 2 samples.

Results

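The 38 genes described here are the enzymes of glycolysis, the transporters and switches that set its rate, known targets of the hypoxia-inducible factors (HIF), and the proteins that sense oxygen. They were chosen by gene symbol, 38 of the 54456 symbols in the deposited matrix, and the rule uses no measured value. They form 4 groups, with 13 core glycolytic enzymes, 4 genes of transport and flux control, 17 HIF targets and 4 genes of oxygen sensing. Cells came from tumours that RENCA, a mouse kidney cancer line, had formed after orthotopic engraftment in BALB/c mice, and were profiled by droplet single-cell RNA-seq. The study has 2 libraries, 1 with the label SMYD3 knockdown and 1 with the label WT, whose tumours the series text calls control. By the series text the cells were sorted for CD45, which marks leukocytes, whereas the records of the samples mention no sort and call the cells epithelial. SMYD3 is a lysine methyltransferase, and the knockdown was made in the grafted line. How it was made, the number of mice behind a library, their age and sex, and the time of growth are not given in the sources used here.

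When oxygen is plentiful, prolyl hydroxylases mark the HIF alpha subunits, and the Vhl protein directs them to degradation. When oxygen is scarce, an alpha subunit (Hif1a or Epas1) escapes this, pairs with Arnt and binds promoters and enhancers that hold the core letters ACGTG or GCGTG. Its targets raise glucose import, glycolysis and lactate export, lower the oxidation of pyruvate by pyruvate dehydrogenase, and drive vessel growth. Hif1a is controlled mainly at the protein level, so its mRNA need not follow its activity. In tumours, macrophages and neutrophils are known to take up the same programme in poorly perfused regions.

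The libraries held 95803321 UMIs (counted molecules) in 10186 barcodes for the label SMYD3 knockdown and 91523767 UMIs in 9265 barcodes for the label WT. KD and WT stand here for these labels, not for a measured loss of Smyd3. The median barcode held 8309.5 UMIs in KD and 9119 in WT, and 22 barcode sequences occurred in both libraries. After filtering, 8784 cells remained in KD and 8079 in WT. Cells were assigned to types by marker genes that are not among the 38, which gave 5968 monocyte-macrophages in KD and 6009 in WT, 1923 neutrophils in KD and 1136 in WT, 132 dendritic cells in KD and 172 in WT, 88 T cells in KD and 118 in WT, and 47 tumour cells in KD and 87 in WT. Natural killer cells (17 in KD, 31 in WT) and other gates were too small to describe. Median depth ranged by type from 1379 (KD) and 1308 (WT) UMIs per neutrophil to 24514 (KD) and 27409 (WT) UMIs per tumour cell, with monocyte-macrophages at 11776.5 (KD) and 11371 (WT). Cells of the tumour gate carried the keratins Krt8 and Krt18, with 8 UMIs (KD) and 23 UMIs (WT) of Ptprc, the gene of CD45, over all their cells. Smyd3 itself had 29 UMIs (20.4 CPM, the gene's share of the type's UMI total times 1e6) in tumour cells labelled SMYD3 knockdown and 40 UMIs (17.0 CPM) in those labelled WT, so a lower level was not detectable. Pancreatic enzyme RNA set the libraries apart. Summed over 7 acinar genes it was 1596 CPM in KD and 0.582 CPM in WT neutrophils, 266 CPM in KD and 0.0414 CPM in WT monocyte-macrophages, and in T cells 716 CPM in KD and 0 CPM in WT. In dendritic cells it was 239 CPM in KD and 0 CPM in WT, and in tumour cells 143 CPM in KD and 0 CPM in WT. With these, mitochondrial and haemoglobin genes left out of the totals, the counts of called genes between the libraries were the same in monocyte-macrophages, neutrophils, dendritic cells and tumour cells, and Ddit4 in T cells was at 1.89-fold.

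With 1 library per label there is no replicate and no test. A gene is called higher or lower where 2 CPM values differ at least 1.5-fold, among genes with at least 20 UMIs and 10 CPM on either side, so a gene can pass through the side where it is high. Each count of called genes stands beside the share called among all genes that met the same filter. Intervals are exact 95% intervals of a ratio of counts (conditional binomial) and cover counting error only, neither mice nor libraries. Medians over a group of genes are of differences in log2(CPM + 5), which understates changes of genes at low levels. In mm10 with the GENCODE vM21 annotation, Hilpda lies at chr6:29272488-29275446 on the plus strand, Slc2a1 at chr4:119108711-119137983 on the plus strand and Egln3 at chr12:54178981-54203860 on the minus strand. Of the 38 genes, 37 passed the filter in monocyte-macrophages, with Car9 under it.

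HIF recognises short letters in DNA, so the windows before the start sites of the genes are shown here, with each ACGTG or its reverse complement CACGT in capitals. Windows of 250 bases before the annotated starts were taken from RefSeq on the build GRCm38.p6, and 35 of the 38 genes had one (Bnip3l, Epas1 and Ndrg1 were not in the table). At least 1 match stood in 21 of these 35 genes (60.0%), in 11 of 15 HIF targets (73.3%), 6 of 13 core enzymes (46.2%) and 3 of 4 genes of transport and flux control, against 4998 of all 27025 genes (18.5%). The extended form ACGTGC, with GCACGT on the other strand, stood in 16 of 35 genes (45.7%) and in 5.63% of all genes. The second core, GCGTG or CACGC, stood in 65.7% and 30.9%. All 3 motifs were searched on both strands, a gene with several starts counted once if any window held a match, and matches were counted where they overlap, as in the palindrome CACGTG, which holds both forms. Sites of 5 HIF targets, of the glucose transporter gene and of 1 enzyme gene are shown as examples of where the match lies. They are cut to at most 29 bases around the match nearest to the start, read on the strand of the gene.
Hilpda, chr6:29272571-29272599, plus strand: gatggccagcggACGTGccccagggcgag
Slc2a1, chr4:119108697-119108725, plus strand: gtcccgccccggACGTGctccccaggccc
Bnip3, chr7:138909597-138909625, minus strand: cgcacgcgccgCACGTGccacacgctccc
Ero1a, chr14:45318619-45318647, minus strand: cgcgcgccgctgCACGTccgcaggggagg
Egln1, chr8:124949306-124949334, minus strand: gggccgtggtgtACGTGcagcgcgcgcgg
Fam162a, chr16:36071626-36071654, minus strand: ccgctcgtcgcgCACGTcccgcacgcccg
Pgam1, chr19:41911745-41911773, plus strand: cgctccttgcttACGTGcgctccgtgact
The match of Hilpda lay 43 bases before the second of its 2 listed starts, inside the annotated gene, and the window of the first start held none. The match lay 36 bases before the start in Slc2a1, 63 in Ero1a and 107 in Bnip3, where it is the palindrome. The site of Ero1a also lay inside the annotated gene, and those of Slc2a1 and Egln1 overlapped the edge of theirs. Those of Bnip3, Fam162a and Pgam1 lay outside.

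Whole windows are shown for a collagen hydroxylase gene, an oxygen sensor gene and a glycolytic enzyme gene, and none of these windows overlaps the annotated gene itself.
P4ha1, chr10:59323046-59323295, plus strand: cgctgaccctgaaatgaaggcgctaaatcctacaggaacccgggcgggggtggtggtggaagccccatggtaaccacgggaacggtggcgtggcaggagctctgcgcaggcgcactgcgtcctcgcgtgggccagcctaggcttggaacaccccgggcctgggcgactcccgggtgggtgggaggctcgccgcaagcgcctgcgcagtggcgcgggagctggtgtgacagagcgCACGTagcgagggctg
Egln3, chr12:54203875-54204124, minus strand: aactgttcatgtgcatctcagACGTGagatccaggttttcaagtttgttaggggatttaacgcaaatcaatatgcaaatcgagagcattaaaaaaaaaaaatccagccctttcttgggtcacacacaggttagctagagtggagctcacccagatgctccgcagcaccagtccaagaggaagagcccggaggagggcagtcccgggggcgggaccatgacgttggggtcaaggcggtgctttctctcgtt
Pgk1, chrX:106186850-106187099, plus strand: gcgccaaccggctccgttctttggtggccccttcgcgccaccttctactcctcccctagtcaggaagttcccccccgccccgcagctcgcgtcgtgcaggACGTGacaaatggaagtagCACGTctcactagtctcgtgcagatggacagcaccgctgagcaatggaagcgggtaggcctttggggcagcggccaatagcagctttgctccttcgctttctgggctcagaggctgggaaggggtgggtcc
P4ha1 held 1 match 16 bases before its start, Egln3 held 1 match 229 bases before its start, and Pgk1 held 2 matches, the nearer one 131 bases before its start. A match describes the letters and is not evidence of binding. Nothing about HIF follows from a window without ACGTG or CACGT, as for Gapdh, Tpi1, Mif and Adm. The windows of Gapdh and Adm held 2 matches each of the second core, GCGTG or CACGC, and those of Tpi1 and Mif held 0.

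The first comparison set each cell type against the monocyte-macrophages of the same library. Neutrophils, dendritic cells and tumour cells each had their own selection of the genes. Neutrophils had more RNA of most HIF targets per molecule counted, but not of most core enzymes. Dendritic and T cells had less RNA of most genes of both groups. Tumour cells had some HIF targets far higher and others nearly absent.

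In neutrophils, Egln3, a prolyl hydroxylase that is itself a HIF target, had 296 CPM against 35.3 CPM in monocyte-macrophages labelled SMYD3 knockdown (8.40-fold, 7.77 to 9.08). With the label WT it had 340.3 CPM against 31.7 CPM (10.7-fold, 9.80 to 11.8). Both libraries thus placed this oxygen sensor an order of magnitude or nearly so above macrophages. Hilpda, a lipid droplet protein that blocks triglyceride breakdown, had 962 against 308 CPM with the label SMYD3 knockdown (3.13-fold) and 960.3 against 299.8 CPM with the label WT (3.20-fold). Slc2a1, the glucose transporter, had 501 against 177 CPM in KD (2.83-fold) and 512 against 189.6 CPM in WT (2.70-fold). Slc16a3, the lactate exporter, was 3.29-fold higher in KD and 2.99-fold higher in WT, and Pfkfb3, whose product activates phosphofructokinase, 2.86-fold higher in KD and 2.79-fold higher in WT. The fourth gene of transport and flux control, Pdk1, whose product inhibits pyruvate dehydrogenase, was not called in either library. Ddit4, an inhibitor of mTORC1, was 6.78-fold higher in KD and 5.66-fold higher in WT, Kdm3a, a histone demethylase, 3.90-fold in KD and 4.27-fold in WT, Ero1a, an oxidase of the endoplasmic reticulum, 3.36-fold in KD and 3.77-fold in WT, and Vegfa, the vessel growth factor, 2.87-fold in KD and 2.38-fold in WT.

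Of the 16 HIF targets that passed the filter, 8 were called higher in KD neutrophils and 9 in WT neutrophils, where 20.0% of all genes in KD and 19.7% in WT were called higher. In the other direction 3 HIF targets were called in KD and 0 in WT, where 60.6% of all genes in KD and 58.9% in WT were called lower. The 3 were Adm (0.237 in KD and 0.724 in WT), Egln1 (0.544 in KD and 0.876 in WT) and Ndrg1 (0.583 in KD and 0.680 in WT). Of the 13 core enzymes 2 were higher and 4 lower in KD, and 1 higher and 3 lower in WT. Pfkl was called higher in both libraries (1.51-fold in KD and 1.67-fold in WT) and Hk2 in KD (1.57-fold, with 1.28-fold in WT). Pgk1, phosphoglycerate kinase, was at 0.532 times the macrophage level in KD and 0.592 times in WT, Gpi1, glucose-6-phosphate isomerase, at 0.557 in KD and 0.537 in WT, and Gapdh, the glyceraldehyde-3-phosphate dehydrogenase, at 0.592 in KD and 0.624 in WT. Group medians were 0.60 in KD and 0.68 in WT for HIF targets and -0.31 in KD and -0.10 in WT for core enzymes, beside -0.88 in KD and -0.76 in WT over all genes. Most genes thus had less CPM in neutrophils than in macrophages, and the core enzymes lay below macrophages by less than the median gene. Macrophage RNA was also counted in neutrophil barcodes: the UMIs per neutrophil of the complement gene C1qa were 1.80% of those per macrophage in KD and 2.43% in WT. A neutrophil holds fewer UMIs, so the share is larger in CPM, the measure of the ratios. The 11 macrophage markers summed to 1605 CPM in KD and 1925 CPM in WT neutrophils. In macrophages the sums were 11811 CPM in KD and 11572 CPM in WT. The part of macrophage RNA in the neutrophil values was not tested. Per cell, the neutrophil values of Egln3 were 102% of the macrophage values in KD and 135% in WT, and those of Slc2a1 34.4% in KD and 33.9% in WT, while Hilpda had 1.46 UMIs per neutrophil against 3.85 per macrophage in KD and 1.45 against 3.62 in WT. Epas1, a HIF alpha subunit, had 1 UMI in the neutrophils of each library, and Car9, a carbonic anhydrase and HIF target, had 0 UMIs in both, which allows up to 1.02 CPM in KD and 1.74 CPM in WT (3 counts of the total).

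**Figure D1:**
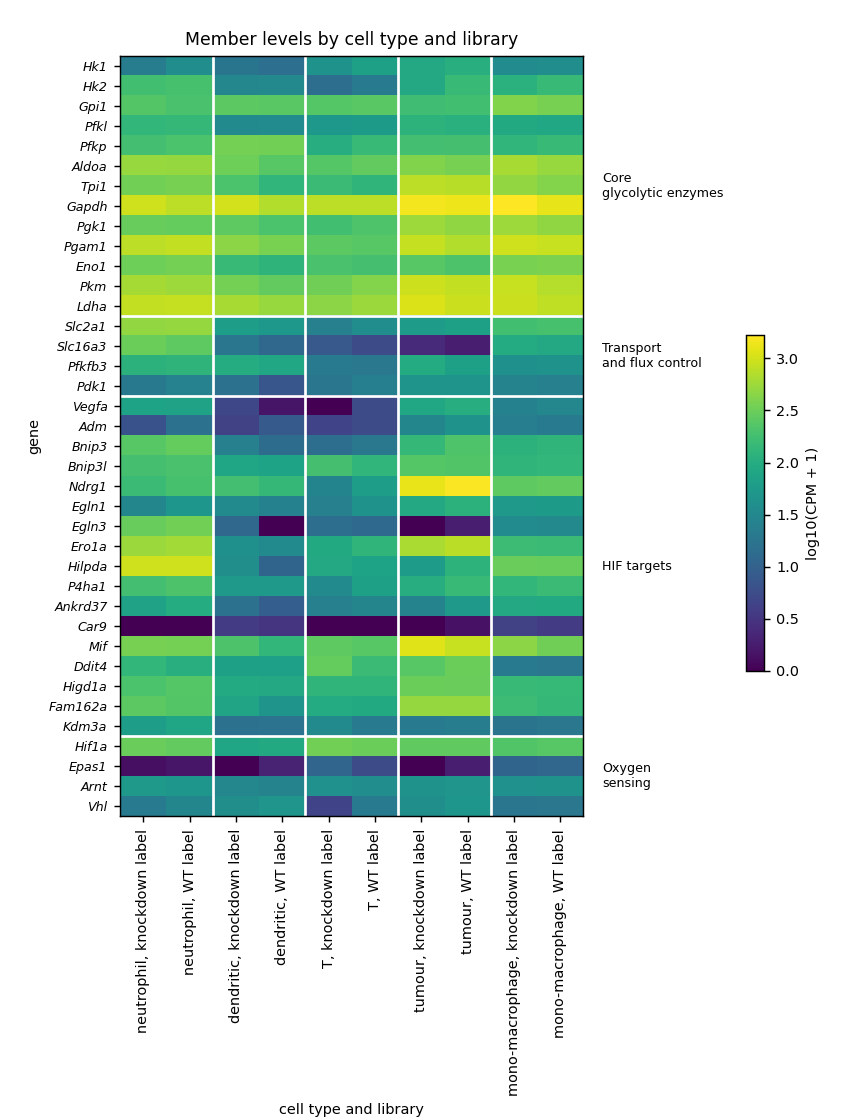
Level of each of the 38 genes (rows, in their 4 groups) in each cell type and library (columns, KD left of WT), as log10(CPM + 1) in colour. Hilpda reached 962 CPM in KD and 960.3 CPM in WT neutrophils, against 308 CPM in KD and 299.8 CPM in WT monocyte-macrophages, while Slc16a3 and Egln3 were near the bottom of the scale in tumour cells.

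In dendritic cells 11 of 13 core enzymes were called lower than in monocyte-macrophages in either library, and of the 16 tested HIF targets 13 in KD and 14 in WT, where 28.9% of all genes in KD and 26.9% in WT were called lower. Hilpda had 37.8 against 308 CPM with the label SMYD3 knockdown and 9.80 against 299.8 CPM with the label WT. Of the 38 genes 4 were called higher, the same in both libraries, where 18.3% of all genes in KD and 20.3% in WT were. Pfkp, the platelet form of phosphofructokinase, had 352 against 133 CPM in KD (2.66-fold) and 343 against 146 CPM in WT (2.36-fold). Ddit4 was 3.31-fold higher in KD and 3.52-fold higher in WT, Pfkfb3 2.39-fold in KD and 1.84-fold in WT, and Vhl 2.25-fold in KD and 2.63-fold in WT.

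T cells also sat below macrophages, with 11 core enzymes in KD and 8 in WT of 13, and 12 HIF targets in KD and 9 in WT of 16, called lower (32.7% of all genes in KD and 30.2% in WT) and medians of -1.05 in KD and -0.82 in WT for the core enzymes. Hk2, the inducible hexokinase, stood at 0.123 times the macrophage level in KD and 0.143 times in WT, which rests on 4 UMIs in KD and 9 in WT. Its UMIs per T cell were 3.25% of those per macrophage in KD and 4.31% in WT. For the macrophage gene C1qa they were 1.80% in KD and 2.96% in WT. The part of macrophage RNA in the T cell values was not tested. Ddit4 went the other way, with 291 against 20.0 CPM (14.6-fold) with the label SMYD3 knockdown and 154 against 18.2 CPM (8.47-fold) with the label WT, where 28.3% of all genes in KD and 27.7% in WT were called higher. Ddit4 was thus higher than in macrophages in neutrophils, dendritic cells, T cells and tumour cells of both libraries.

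In tumour cells, 9 HIF targets in KD and 11 in WT, of 16 tested, were called higher than in monocyte-macrophages and 3 in each library lower, where 44.7% of all genes in KD and 47.6% in WT were called higher and 21.3% in KD and 19.6% in WT lower. Ndrg1, a stress-responsive protein, had 1287 against 265 CPM with the label SMYD3 knockdown (4.86-fold) and 1582 against 280.4 CPM with the label WT (5.64-fold). Ero1a was 4.00-fold higher in KD and 4.84-fold higher in WT, Vegfa 3.37-fold in KD and 3.36-fold in WT, the mitochondrial protein gene Fam162a 3.21-fold in KD and 3.71-fold in WT, and the cytokine gene Mif 2.55-fold in KD and 2.66-fold in WT. The lactate exporter Slc16a3 was nearly absent, at 1.41 CPM against 95.5 CPM in macrophages in KD and 0.850 CPM against 86.9 CPM in WT, which is 2 UMIs in each. Egln3 had 0 UMIs there in KD, which allows up to 2.11 CPM, and 2 UMIs in WT, and Hilpda stood at 0.190 in KD and 0.403 in WT and Slc2a1 at 0.334 times the macrophage level in KD and 0.354 times in WT. Genes of one textbook programme were therefore split between types, with Egln3, Slc16a3 and Slc2a1 high in neutrophils and low in tumour cells, and Ero1a, Vegfa and Fam162a higher than in macrophages in both.

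The second comparison divided the monocyte-macrophages into states, each gated by marker genes outside the 38 after thinning every cell to 3000 UMIs, and set each state against the other monocyte-macrophages of its library. The cells (49 in KD, 59 in WT) that carried both Nos2, the inducible nitric oxide synthase, and Inhba, the activin subunit, had nearly the whole set of glycolytic enzymes and HIF targets higher. Cells gated by Mmp12 and Gpnmb and by Arg1 and Spp1 came next, and cells with tissue macrophage markers (Lyve1, Cd163, Folr2) or with Cx3cr1 and Vcam1 were at the low end. Nos2, Arg1 and Spp1 can themselves respond to low oxygen, so these gates are not independent of the programme, and gates overlap: 68 of the 108 cells of the Nos2 Inhba gate also met the Arg1 Spp1 gate.

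In the Nos2 Inhba gate, 13 of 13 core enzymes, 4 of 4 genes of transport and flux control and 16 of the 16 HIF targets that passed the filter were called higher in both libraries, where 7.18% of all genes were. Hilpda had 2788 CPM in the gate against 289 CPM in the other cells with the label SMYD3 knockdown (9.65-fold, 9.15 to 10.2). With the label WT it had 2109 against 281 CPM (7.52-fold, 7.13 to 7.92). Every cell of the gate held a Hilpda UMI at full depth. At 1000 UMIs per cell the share was 89.8% in KD (exact binomial 95% interval 77.8 to 96.6) and 76.3% in WT (63.4 to 86.4). In the tissue gate it was 5.15% in KD and 5.90% in WT, and in T cells 2.30% in KD (0.280 to 8.06) and 5.17% in WT (1.92 to 10.9). Egln3 had 413 against 32.4 CPM in KD (12.8-fold, 11.1 to 14.7) and 253 against 29.3 CPM in WT (8.63-fold, 7.37 to 10.0). Vegfa had 268 against 23.1 CPM in KD (11.6-fold) and 171 against 28.5 CPM in WT (6.02-fold). The ratios of these 3 genes were larger with the label SMYD3 knockdown, while that of Adm ran the other way: Adm, a vasodilator peptide gene, was 2.95-fold higher (2.06 to 4.10) with that label and 7.83-fold higher (6.39 to 9.50) with the label WT.

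Genes for mitochondrial turnover and stress followed. Bnip3, a mitophagy receptor, had 696 against 113 CPM in KD (6.18-fold) and 775 against 122 CPM in WT (6.37-fold). Ndrg1 had 1556 against 256 CPM in KD (6.08-fold) and 1844 against 264 CPM in WT (6.98-fold), and Ero1a was 6.72-fold higher in KD and 6.32-fold higher in WT. Ddit4 was 4.61-fold higher in KD and 5.58-fold higher in WT and Ankrd37, an ankyrin repeat protein gene, 4.25-fold in KD and 5.42-fold in WT. The smallest ratio was that of P4ha1, the collagen prolyl hydroxylase subunit, at 1.54-fold in KD and 1.77-fold in WT. The remaining HIF targets above the filter (Bnip3l, Egln1, Mif, Higd1a, Fam162a and Kdm3a) ranged between 2.56-fold and 3.84-fold. Car9 had 2 UMIs in KD and 5 in WT in the gate, too few to place.

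The enzymes differed by less than most HIF targets, and all in the same direction. Gapdh had 4484 against 1648 CPM in KD (2.72-fold, 2.61 to 2.83) and 4011 against 1235 CPM in WT (3.25-fold, 3.13 to 3.37). Ldha, lactate dehydrogenase, was 2.59-fold higher in KD and 2.87-fold higher in WT, and Hk1, the constitutive hexokinase, had the steepest ratio of the group, 4.69-fold in KD and 4.75-fold in WT. Hk2 was at 2.64-fold in KD and 2.30-fold in WT, and Pfkl, the liver form of phosphofructokinase, at 1.85-fold in KD and 2.37-fold in WT. The other core enzymes (Gpi1, Pfkp, Aldoa, Tpi1, Pgk1, Pgam1, Eno1 and Pkm) lay between 2.08-fold and 3.11-fold over both libraries. Slc2a1 exceeded every enzyme, with 974 against 171 CPM in KD (5.70-fold) and 1177 against 179.7 CPM in WT (6.55-fold). Group medians were 1.37 in KD and 1.47 in WT for core enzymes and 1.78 in KD and 2.28 in WT for HIF targets, beside -0.31 in KD and -0.29 in WT over all genes.

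Oxygen sensing genes did not share the pattern. Hif1a mRNA stood at 214 against 223 CPM in KD (0.961-fold, 0.793 to 1.15) and 203 against 244 CPM in WT (0.832-fold, 0.703 to 0.979) in the Nos2 Inhba gate. Of the 4 genes, Vhl, the ubiquitin ligase subunit, was called higher in both libraries (2.31-fold in KD and 1.72-fold in WT). Arnt, the HIF partner, was 1.60-fold higher with the label SMYD3 knockdown and at 0.740 with the label WT, and Epas1 did not pass the filter in both libraries. Hif1a was highest in classical monocytes (1.61-fold in KD and 1.84-fold in WT over the other cells), and was also called higher in the Car4 Vcan (1.62 in KD and 1.68 in WT) and MHC class II-high gates (1.64 in KD and 1.57 in WT) and lower in the Mmp12 Gpnmb gate (0.576 in KD and 0.449 in WT) and the tissue gate (0.421 in KD and 0.354 in WT). The order of states by Hif1a mRNA was therefore not that by HIF target mRNA. Epas1 differed again: it was the 1 gene of 37 called higher in the tissue gate (9.42% of all genes), at 2.14-fold in KD and 1.67-fold in WT, and the 1 gene called lower in the Car4 Vcan gate (8.31% of all genes; 0.443 in KD and 0.607 in WT) and in classical monocytes (13.7% of all genes; 0.200 in KD and 0.402 in WT).

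**Figure D2:**
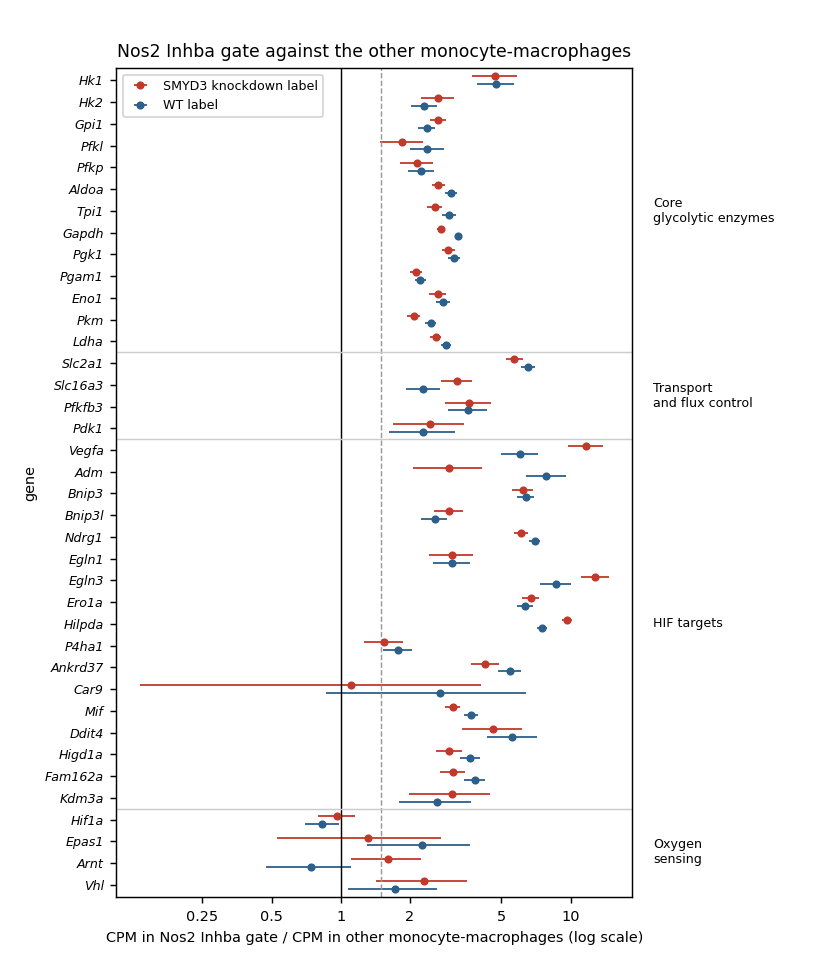
Ratio of CPM in the Nos2 Inhba gate to CPM in the other monocyte-macrophages, on a log axis, for each gene and library, with exact 95% intervals for counting error. The dashed line marks 1.5-fold: all 13 core enzymes lay to its right in both libraries, while Hif1a lay at 0.961 in KD and 0.832 in WT.

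Related genes outside the 38 were compared in the Nos2 Inhba gate too. Called higher in both libraries were 4 of 14 tested glycolytic isoforms and neighbouring enzymes and 11 of 17 other HIF-responsive genes. Among all genes 549 of 7642 were. In each of the 2 lists 2 genes were called lower, where 1945 of all 7642 genes were. The 4 isoforms and neighbouring enzymes called higher were Eno2, a HIF-responsive enolase (6.59-fold in KD and 6.09-fold in WT), and 3 genes of glycogen metabolism. These 3 were Gbe1, the branching enzyme (5.87 in KD and 5.82 in WT), Gys1, glycogen synthase (5.00 in KD and 5.08 in WT), and Pgm1, phosphoglucomutase (4.01 in KD and 4.62 in WT). Ldhb, the lactate dehydrogenase subunit that favours pyruvate, stood at 0.399 in KD and 0.481 in WT, and Tigar, an inhibitor of glycolytic flux, at 0.366 in KD and 0.433 in WT. Mxi1, an antagonist of Myc (6.17 in KD and 6.23 in WT), Ak4, a mitochondrial adenylate kinase (5.57 in KD and 6.17 in WT), and Plin2, a lipid droplet coat protein like Hilpda a marker of stored lipid (2.78 in KD and 2.56 in WT), were among the HIF-responsive genes called higher. Tfrc, the transferrin receptor and a known HIF target, was lower (0.183 in KD and 0.349 in WT).

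The Mmp12 Gpnmb gate (100 cells in KD, 134 in WT) had 12 of 13 core enzymes, 15 of 16 HIF targets and 4 of 4 genes of transport and flux control called higher in both libraries, where 6.73% of all genes were. Hilpda had 1415 against 287 CPM in KD (4.92-fold) and 1392 against 272 CPM in WT (5.11-fold), and Adm was 5.34-fold higher in KD and 7.38-fold higher in WT. In the Arg1 Spp1 gate (1555 cells in KD, 1303 in WT), 10 core enzymes, 11 HIF targets and 3 genes of transport and flux control were called higher in both, where 2.85% of all genes were. Hilpda had 551 against 197 CPM in KD (2.79-fold) and 695 against 165 CPM in WT (4.21-fold), and Pfkp was near even (1.06 in KD and 1.08 in WT). Medians in this gate were 0.65 in KD and 0.86 in WT for core enzymes and 0.87 in KD and 1.20 in WT for HIF targets. The result was not seen with clusters made without the 38 genes in place of the gate. The cluster richest in its markers (307 cells, against 2858 in the gate) had HIF medians of -0.21 in KD and 0.14 in WT and core medians of 0.02 in KD and 0.06 in WT. Most cells of the gate lie outside that cluster, so the 2 contrasts differ and cannot show whether the result rests on the gate. For the Nos2 Inhba gate the corresponding cluster was larger (1287 cells, the same as for Mmp12 Gpnmb) and had medians of 1.64 in KD and 2.02 in WT for HIF targets and 1.19 in KD and 1.36 in WT for core enzymes.

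The Car4 Vcan gate (412 cells in KD, 288 in WT) was intermediate, with 8 core enzymes, 9 HIF targets and 3 genes of transport and flux control called higher in both libraries (5.02% of all genes) and Hilpda at 2.11-fold in KD and 1.98-fold in WT. In classical monocytes (125 cells in KD, 92 in WT) the HIF targets were called more often than the enzymes: 7 HIF targets, 1 gene of transport and flux control and 1 core enzyme, where 6.98% of all genes were. Vegfa led there with 88.0 against 24.0 CPM in KD (3.67-fold) and 83.7 against 29.4 CPM in WT (2.85-fold). Cells with interferon response genes (147 cells in KD, 172 in WT) had 3 HIF targets (Adm at 3.11-fold in KD and 3.12-fold in WT, Bnip3 and Ndrg1) and Pfkfb3 called higher, and 0 core enzymes, where 4.66% of all genes were. MHC class II-high cells (446 in KD, 372 in WT) had 1 core enzyme called higher (7.38% of all genes), Pfkp with 309 against 119.6 CPM in KD (2.58-fold) and 327 against 133 CPM in WT (2.45-fold). They had 2 HIF targets called lower (9.88% of all genes), Adm at 0.0476 in KD and 0.200 in WT and Bnip3 at 0.637 in KD and 0.502 in WT. Also called lower in both libraries were 1 gene of transport and flux control and 1 of oxygen sensing.

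At the low end, the tissue gate (1107 cells in KD, 1457 in WT) had 11 core enzymes, 12 HIF targets and 2 genes of transport and flux control called lower in both libraries, where 8.78% of all genes were. Egln3 had 3.82 against 43.5 CPM in KD (0.0878) and 2.40 against 41.5 CPM in WT (0.0577), Vegfa stood at 0.123 in KD and 0.0582 in WT, and Hilpda had 71.6 against 370.3 CPM in KD (0.193) and 73.2 against 376 CPM in WT (0.194). Epas1 ran the other way, as given with the oxygen sensing genes. The Cx3cr1 Vcam1 gate (269 cells in KD, 233 in WT) had 12 core enzymes, 12 HIF targets and 3 genes of transport and flux control called lower (6.63% of all genes), with Ndrg1 at 0.180 in KD and 0.0868 in WT and Slc2a1 at 0.223 in KD and 0.128 in WT. Medians were -1.23 in KD and -1.27 in WT for its core enzymes and -1.37 in KD and -1.69 in WT for its HIF targets. In cycling cells (644 in KD, 649 in WT) 6 HIF targets and Pfkfb3 were called lower (1.95% of all genes), with Hilpda at 0.385 in KD and 0.448 in WT, and 0 core enzymes were called in either direction.

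Ranked by CPM over the 10 gates, the Nos2 Inhba gate held the highest level of 12 of 13 core enzymes, 4 of 4 genes of transport and flux control and 15 of 17 HIF targets in both libraries. Pfkp was the core enzyme that differed, highest in MHC class II-high cells. Median depth in the Nos2 Inhba gate was 10018 UMIs per cell in KD and 10062 in WT, against 12403 in KD and 11843 in WT over the monocyte-macrophages of at least 3000 UMIs, and median mitochondrial shares were 0.835% in KD and 0.791% in WT, against 1.24% in KD and 1.29% in WT. The part of depth and cell quality in the result was not tested. Calls against the trend were few. Of the tested genes among the 38, 0 were called lower in the Nos2 Inhba gate (25.5% of all genes), the Arg1 Spp1 gate (2.61%) and the interferon gate (3.26%), 1 in the Mmp12 Gpnmb gate (Hif1a; 21.9% of all genes), and 0 were called higher in the Cx3cr1 Vcam1 gate (4.55%) and in cycling cells (9.31%).

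**Figure D3:**
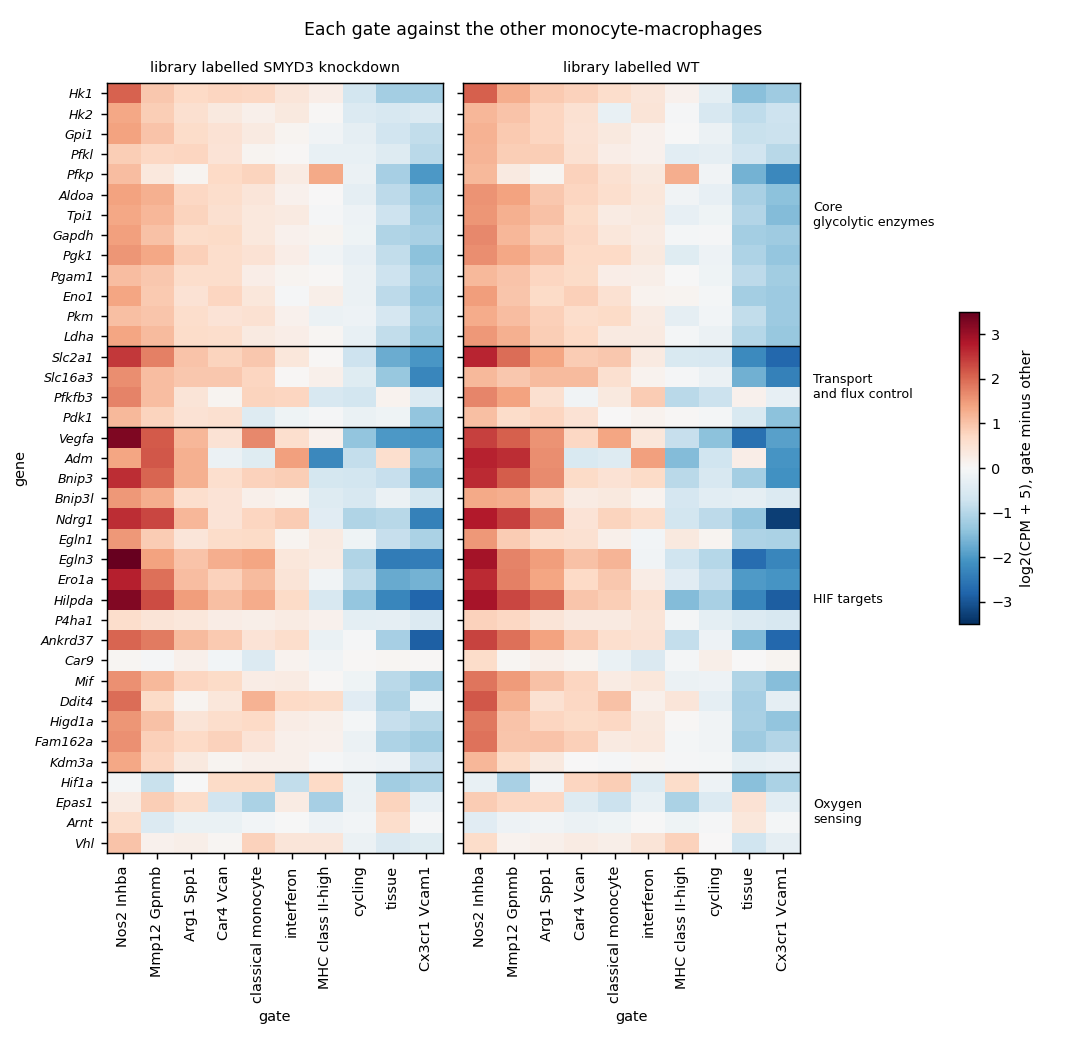
Difference in log2(CPM + 5) between each gate (columns) and the other monocyte-macrophages of the same library, for the 38 genes (rows), with the library labelled SMYD3 knockdown left of the library labelled WT. Red means higher in the gate: medians of HIF targets were 1.78 in KD and 2.28 in WT in the Nos2 Inhba gate and -1.37 in KD and -1.69 in WT in the Cx3cr1 Vcam1 gate.

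Because Hilpda was high in neutrophils yet unevenly spread, neutrophils with and without a Hilpda UMI were set side by side. This split was chosen after the values were seen and is a description. With every cell thinned to 1000 UMIs, 374 of 1593 KD neutrophils (23.5%, exact binomial interval 21.4 to 25.6) and 218 of 913 WT neutrophils (23.9%, 21.1 to 26.8) held a Hilpda UMI, beside 2.27% of KD and 1.16% of WT dendritic cells. Before thinning the shares were 24.7% in KD and 26.1% in WT, and 330 KD and 223 WT neutrophils under 1000 UMIs were left out. Cells with Hilpda had nearly all other tested HIF targets and core enzymes higher in both libraries.

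Of the genes that passed the filter, 12 of 12 core enzymes, 14 of 14 HIF targets other than Hilpda and 3 of 3 genes of transport and flux control were called higher in neutrophils with Hilpda in each library, where 15.1% of all genes in KD and 16.9% in WT were. Medians were 1.73 in KD and 1.78 in WT for core enzymes and 2.33 in KD and 2.36 in WT for HIF targets, beside -0.15 in KD and -0.12 in WT over all genes. Ero1a had 1765 CPM in cells with Hilpda against 204 CPM in cells without, labelled SMYD3 knockdown (8.64-fold, 7.46 to 10.0). With the label WT it had 1917 against 214 CPM (8.94-fold, 7.40 to 10.9). P4ha1 had 580.2 against 59.9 CPM in KD (9.69-fold) and 739 against 70.5 CPM in WT (10.5-fold), the steepest ratio in both libraries apart from Hilpda itself. P4ha1 had the smallest ratio among the tested HIF targets in the Nos2 Inhba macrophages and the largest one here.

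Bnip3 had 754 against 99.3 CPM in KD (7.60-fold) and 853 against 96.4 CPM in WT (8.85-fold). Higd1a, a mitochondrial protein gene induced by low oxygen, was 7.58-fold higher in KD and 8.74-fold higher in WT, and Ldha had 2163 against 427 CPM in KD (5.07-fold) and 1889.9 against 424 CPM in WT (4.45-fold). Egln3 and Slc16a3, both far higher in neutrophils than in macrophages, were among the genes least divided by Hilpda. Egln3 had 548 against 238 CPM in KD (2.30-fold) and 550.5 against 302 CPM in WT (1.82-fold), and Slc16a3 was 1.71-fold higher in KD and 1.77-fold higher in WT. Hif1a (1.32-fold in KD and 1.21-fold in WT) was not called, and Arnt stood at 0.593 in KD and 0.399 in WT with 12 UMIs in KD and 5 in WT in cells with Hilpda, where both intervals include 1.

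Depth was alike in both sets of cells. The median was 1449.5 UMIs with and 1490 without Hilpda in KD, and 1412.5 with and 1437 without in WT. The macrophage genes C1qa (1.06-fold in KD, 0.912 to 1.24, and 0.845-fold in WT, 0.701 to 1.01) and Apoe (1.03-fold in KD and 1.07-fold in WT) were not called. The neutrophil gene S100a8, an alarmin subunit, was lower in cells with Hilpda (0.454 in KD and 0.548 in WT). The same split in monocyte-macrophages, 1041 of 5810 KD cells and 1005 of 5861 WT cells with Hilpda, gave 13 of 13 core enzymes, 15 of 15 HIF targets and 4 of 4 genes of transport and flux control higher, where 7.96% of all genes in KD and 8.37% in WT were, with medians of 1.13 in KD and 1.22 in WT for core enzymes and 1.49 in KD and 1.49 in WT for HIF targets. There the macrophage genes were not level, with C1qa at 0.276 in KD and 0.355 in WT and Apoe at 0.340 in KD and 0.430 in WT, and median depth was 10482 UMIs with and 12231 without Hilpda in KD, and 10703 with and 11655 without in WT. The level of P4ha1 differed less there (1.59-fold in KD and 1.74-fold in WT), and Vegfa (10.2-fold in KD and 7.13-fold in WT) and Egln3 (8.75-fold in KD and 8.46-fold in WT) more.

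**Figure D4:**
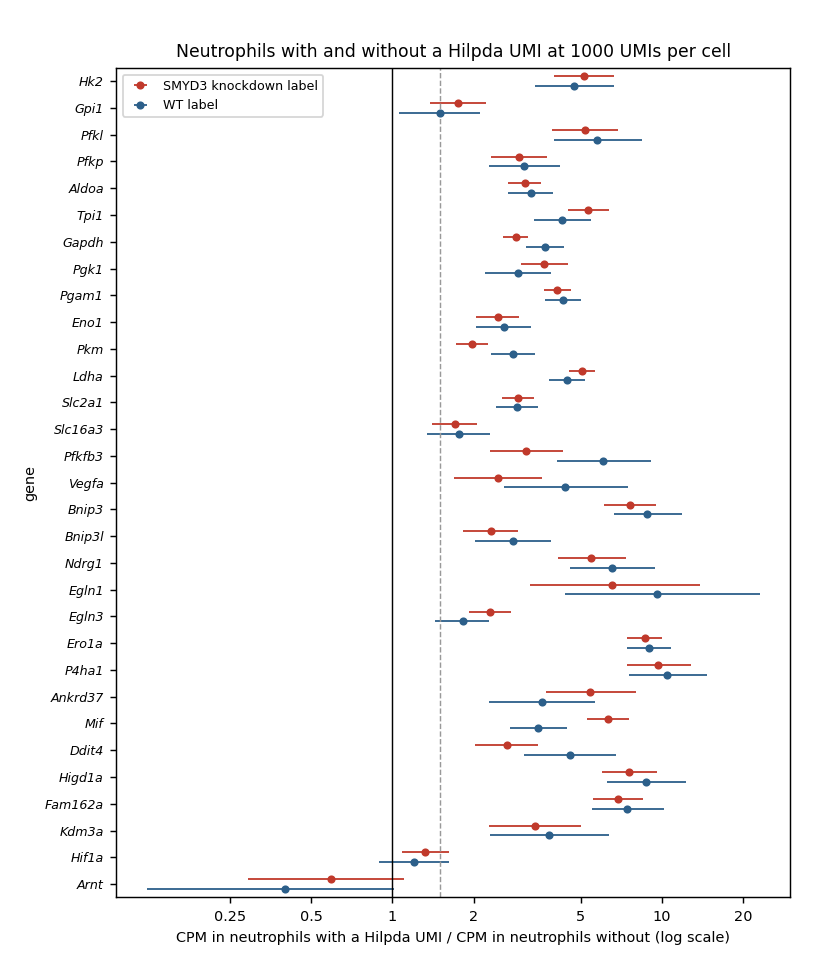
Ratio of CPM in neutrophils with a Hilpda UMI to CPM in neutrophils without one, after thinning to 1000 UMIs per cell, on a log axis with exact 95% intervals, for the 31 genes that passed the filter in both libraries. Ero1a (8.64 in KD and 8.94 in WT) and P4ha1 (9.69 in KD and 10.5 in WT) lie far right, Slc16a3 (1.71 in KD and 1.77 in WT) just past the dashed line at 1.5, and Hif1a (1.32 in KD and 1.21 in WT) short of it.

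The third comparison set the library labelled SMYD3 knockdown against the library labelled WT, the contrast of the study, within each cell type. In monocyte-macrophages, the type with the most cells, 0 of 37 genes reached 1.5-fold in either direction, where 0.417% of all genes were called higher and 1.20% lower. Core enzymes leaned up in the label SMYD3 knockdown, with 9 of 13 having a positive log2 difference and a median of 0.17, beside -0.02 over all genes. Of all genes that passed the filter, 3565 of 7914 were positive. Gapdh had 1661 CPM with the label SMYD3 knockdown and 1259.7 CPM with the label WT (1.32-fold), Pkm, pyruvate kinase, was at 1.21-fold and Tpi1, triosephosphate isomerase, at 1.20-fold. Hk2 went against them, with 112 CPM against 147 CPM (0.762-fold). HIF targets had a median of 0.00 and 8 of 16 positive, between Vegfa at 0.839-fold and Mif at 1.35-fold. Hilpda had 308 CPM against 299.8 CPM (1.03-fold, 1.01 to 1.05).

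In neutrophils 3 of 36 genes were called, all lower with the label SMYD3 knockdown, where 3.61% of all genes were called higher and 10.8% lower, so the share was near the background. Hk1 had 22.2 CPM against 36.6 CPM (0.606-fold, 0.422 to 0.871), Egln1, the main oxygen-sensing prolyl hydroxylase, 28.7 CPM against 48.3 CPM (0.594-fold, 0.434 to 0.815), and Adm rested on 16 against 26 UMIs (0.361-fold, 0.181 to 0.700). Adm passed the filter only through the label WT, in which it is higher. Under a filter of 100 UMIs and 50 CPM 0 genes were called lower. Hilpda was level, at 962 CPM against 960.3 CPM.

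Within macrophage states, the HIF targets leaned down with the label SMYD3 knockdown in Arg1 Spp1 cells and up in tissue and MHC class II-high cells. In the Arg1 Spp1 gate 1 of 16 HIF targets was positive, with a median of -0.21 and 0 called, where 0.566% of all genes were called higher and 1.85% lower. Over all genes 3583 of 7771 were positive there, with a median of -0.01. Slc2a1 had 273 CPM with the label SMYD3 knockdown against 356 CPM with the label WT (0.767-fold, 0.741 to 0.794), Hilpda 551 against 695 CPM (0.792-fold) and Bnip3 198 against 268 CPM (0.740-fold). In the tissue gate 11 of 13 tested HIF targets and 12 of 13 core enzymes were positive, with medians of 0.19 and 0.27 and 0 called (0.764% of all genes higher, 1.60% lower). Among all genes of that gate 4321 of 7857 were positive, with a median of 0.02. In MHC class II-high cells 5 of 15 HIF targets were called higher (1.96% of all genes higher, 3.85% lower), namely Egln3 at 43.4 against 18.1 CPM (2.40-fold, 1.85 to 3.13), Hilpda at 209.7 against 106 CPM (1.98-fold, 1.78 to 2.21), Vegfa (1.80-fold), Mif (1.61-fold) and Ankrd37 (1.51-fold). The median of the HIF targets there was 0.28, beside -0.03 over all genes. The difference between states was not tested, and a shift of cells among overlapping gates cannot be told apart from a change within them.

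In the Mmp12 Gpnmb gate (4.14% of all genes higher, 8.13% lower), the Car4 Vcan gate (1.46% higher, 3.24% lower) and cycling cells (0.725% higher, 1.99% lower) 0 of the genes were called. In the Cx3cr1 Vcam1 gate Ndrg1 (1.96-fold), Mif and Slc2a1 (1.62-fold each) were called higher and Kdm3a lower (0.528-fold), where 3.30% of all genes were higher and 3.96% lower. Kdm3a passed the filter only through the label WT, in which it is higher (7.29 CPM in KD and 13.8 CPM in WT). In interferon-response cells Egln3 (1.67-fold), Ddit4 (1.63-fold) and Epas1 (1.62-fold, an interval that includes 1) were called higher, where 4.79% of all genes were higher and 7.78% lower.

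In dendritic cells 8 of 33 genes were called higher with the label SMYD3 knockdown and 0 lower, where 4.31% of all genes were called higher and 7.98% lower. HIF targets were positive in 12 of 13 with a median of 0.33, and core enzymes had a median of 0.28. Over all genes 3422 of 7706 were positive, with a median of -0.03. Hilpda had 56 UMIs (37.8 CPM) against 19 UMIs (9.80 CPM), 3.86-fold (2.26 to 6.88). It was concentrated: with the label SMYD3 knockdown 1 cell held 20 of the 56 UMIs and 3 cells held 35, while with the label WT 19 cells held 1 each. Pdk1 had 22 against 12 UMIs (2.40-fold), Bnip3 36 against 25 (1.89-fold), and Fam162a (1.63-fold), Tpi1 (1.56-fold) and Mif (1.55-fold) followed, while the intervals of Ankrd37 (1.88-fold) and Slc16a3 (1.62-fold) include 1. Hilpda, Pdk1 and Ankrd37 passed the filter only through the label SMYD3 knockdown, in which they are higher, so the count of 8 is partly set by the filter. Egln3, under the filter, had 16 UMIs (10.8 CPM) against 0, where 0 allows up to 1.55 CPM (3 counts of the total). With cells thinned to 1000 UMIs, 4 genes were called higher and 1 lower, and Bnip3 and Ankrd37 turned to 0.652-fold and 0.434-fold.

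Subset markers of the dendritic gate were as follows. Cells with Xcr1 or Clec9a, of the cross-presenting subset, made up 70.5% in KD (exact binomial interval 61.9 to 78.1) and 70.3% in WT (62.9 to 77.1). Those with Ccr7 or Fscn1, of the migratory state, made up 28.8% in KD and 27.9% in WT, and those with Cd209a 9.85% in KD (5.35 to 16.3) and 5.81% in WT (2.82 to 10.4). The 11 macrophage markers summed to 454 CPM with the label SMYD3 knockdown and 592 CPM with the label WT. Apoe went the same way, at 220 CPM in KD and 350 CPM in WT. The other direction was seen for Spp1 (181 CPM in KD and 128 CPM in WT) and Arg1 (18.9 CPM in KD and 16.5 CPM in WT). Spp1 is not particular to macrophages here, with 4274 CPM in KD and 3052 CPM in WT in the tumour gate. The part of macrophage RNA in the result was not tested.

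The knockdown was made in the grafted line. In the tumour gate Smyd3 was not detectably lower with the label SMYD3 knockdown (29 UMIs, 20.4 CPM) than with the label WT (40 UMIs, 17.0 CPM). Whether the cells of this gate carry the knockdown was not tested. Of 34 genes there, 4 were called lower with the label SMYD3 knockdown and 0 higher. Among all genes 3.93% were called higher and 8.96% lower. The share called lower was thus near the background. Hilpda had 58.4 CPM against 121 CPM (0.484-fold, 0.374 to 0.620), Ankrd37 was at 0.511-fold, Hk2 at 0.588-fold and Bnip3 at 0.640-fold. HIF targets had a median of -0.30 with 4 of 15 positive, and core enzymes a median of 0.11. Over all genes 3983 of 9015 were positive, with a median of -0.04. Among other HIF-responsive genes 7 of 21 were called lower. The values of tumour cells did not hold under other processing: with doublets kept, Hilpda was at 0.979-fold, 1 gene was called lower and the HIF median was 0.16, and with each cell weighted alike the median was 0.22 and 0 genes were called lower. With the label WT, 3 of the 87 cells held 133 of the 284 Hilpda UMIs.

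In T cells Ddit4 had 85 UMIs (291 CPM) with the label SMYD3 knockdown and 66 UMIs (154 CPM) with the label WT (1.89-fold, 1.35 to 2.65), the 1 gene of 22 called higher, where 7.51% of all genes were. Hk1, Pfkp, Ndrg1 and P4ha1 were called lower (13.0% of all genes), each with an interval that includes 1. Hk1 (13 against 29 UMIs), Ndrg1 (8 against 26) and P4ha1 (10 against 29) passed the filter only through the label WT. They are higher with that label, so the count of genes called lower is partly set by the filter.

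**Figure D5:**
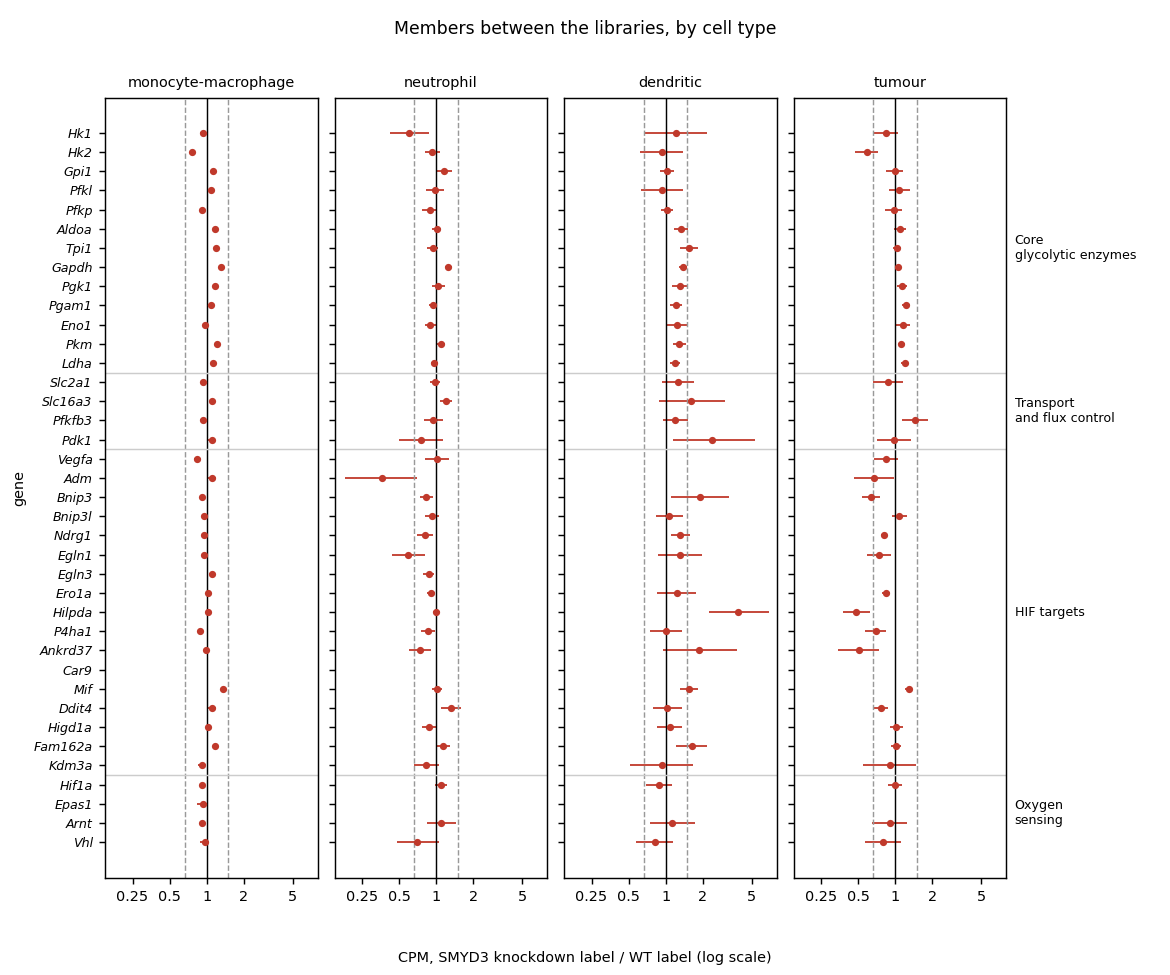
Ratio of CPM, label SMYD3 knockdown over label WT, on a log axis with exact 95% intervals for counting error, for each gene that passed the filter in 4 cell types. Monocyte-macrophage points all lie within the dashed lines at 1.5-fold, and Hilpda lies at 1.03 there, at 1.00 in neutrophils, 3.86 in dendritic cells and 0.484 in tumour cells.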

How the data were processed

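Droplet single-cell RNA-seq was deposited as 1 matrix of whole-number UMI counts, with the library given by the barcode suffix. The authors made these counts with Cell Ranger 7.1.0 on mm10, per the submitters' processing notes, with an annotation not given in the sources used here. Of 55357 gene identifiers 52081 are in GENCODE vM21. The counts are raw and not normalized per the file headers and values. UMIs are counted molecules, so cells can be summed, but free RNA and doublets can carry one cell's RNA into another's barcode.

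Barcodes were kept that had 200 or more genes, 500 or more UMIs and no more than 20% of UMIs from mitochondrial genes (9507 with the label SMYD3 knockdown, 8682 with the label WT). The threshold chosen by Scrublet (scanpy 1.11.5) marked 0 cells, so the top-scoring cells were dropped, 0.8% for each 1000 cells of a library that passed (723 cells in KD, 603 in WT). Cell types needed at least 3 of their own markers and a margin of 0.1 over other types, and cells with at least 5% pancreatic enzyme UMIs were set aside (80 in KD, 0 in WT). Monocyte-macrophage states needed 1 UMI of each of at least 2 state markers in cells thinned to 3000 UMIs, and at least 2% of UMIs for MHC class II-high cells. UMIs were summed per class and divided by the class total. States were compared between libraries where each library had at least 100 cells. Python 3.11.15, numpy 2.4.6, scipy 1.17.1, leidenalg 0.10.2 and matplotlib 3.10.9 were used. The code was tested on simulated data. There is 1 library per label, so no test across samples was run, and precision is limited by counting, from 2926847 (KD) and 1719277 (WT) UMIs in neutrophils down to 291918 (KD) and 428535 (WT) in T cells.

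The 38 symbols match 39 identifiers, since Aldoa has a second one with 2 UMIs in KD and 1 in WT, and both were summed. The near-identical copy Eno1b took 2.34% of the UMIs of Eno1 and itself, and copies of Mif took 0.687%, so both genes are uncertain by about these shares. Not every gene at least 1.5-fold apart is named. Named genes were taken from these, with up to 6 others per group chosen for the largest or smallest difference or the highest level. The rest are given by counts and ranges. The genes, lists, gates and rules were chosen with earlier results of these data known. The alternatives were another mitochondrial limit, no doublet removal, thinning, equal cell weights, Leiden clusters made without the 38 genes (2000 variable genes, 30 components, 15 neighbours, resolution 1), other scaling, other filters, another pseudocount, other totals and stricter state gates. Unassigned cells (521 in KD, 479 in WT) and natural killer cells were left out.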

Additional observations from a re-analysis of the deposited data

Results flagged for a closer look

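For 2 genes the contrast of the label SMYD3 knockdown to the label WT ran in opposite directions in dendritic and tumour cells. Hilpda was at 3.86-fold in dendritic cells and 0.484-fold in tumour cells, and Bnip3 at 1.89-fold in dendritic cells and 0.640-fold in tumour cells. Each value rests on 1 library per label, the difference was not tested, and the values of both cell types depend on the processing. In dendritic cells 3 cells labelled SMYD3 knockdown held 35 of the 56 Hilpda UMIs, and Bnip3 was at 0.652-fold with cells thinned to 1000 UMIs, the direction of the tumour cells. In tumour cells Hilpda was at 0.979-fold and Bnip3 at 1.06-fold with doublets kept.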

How the results depend on the processing

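No paired analysis was possible because each label has 1 library. Of the values recomputed for 32 summary results under 11 alternatives, 198 stayed within their tolerance, 50 moved and 4 reversed. For 20 single-gene ratios, 181 stayed, 12 moved and 5 reversed. With at most 10% mitochondrial UMIs, a pseudocount of 1 or totals without mitochondrial, haemoglobin and pancreatic genes, none of these results moved. The causes of the other shifts were not tested.

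Tumour cells were the least stable. With doublets kept, 3 genes were called higher and 1 lower in KD than in WT, and the median of the HIF targets was 0.16 in place of -0.30. With cells thinned to 1000 UMIs, 2 were higher and 0 lower, with medians of 0.093 for HIF targets and 0.32 for core enzymes. With equal cell weights, 4 were higher and 0 lower, with medians of 0.22 and 0.27. With no filter, 1 was higher and 7 lower. Bnip3 was at 1.06-fold with doublets kept and 1.00-fold with equal weights, and Hilpda at 0.979-fold, 0.755-fold and, thinned, 0.278-fold. In dendritic cells 4 were higher and 1 lower when thinned, 3 were higher at 100 UMIs and 50 CPM, and 2 were lower with no filter. When thinned, Ankrd37 was at 0.434-fold and Bnip3 at 0.652-fold in dendritic cells and Ndrg1 at 1.07-fold in T cells. In neutrophils 0 were lower at 100 UMIs and 50 CPM. In monocyte-macrophages medians were 0.076 for HIF targets and 0.19 for core enzymes when thinned, 0.063 and 0.21 with equal weights, and 0.20 for core enzymes with scaling by the median ratio.

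State and type medians mostly kept their sign. In the Arg1 Spp1 gate the HIF targets were at -0.21 in KD and 0.14 in WT and the core enzymes at 0.024 in KD and 0.058 in WT with clusters. Otherwise the HIF targets there ranged over 0.79 in KD (thinned), 1.11 in WT (doublets kept) and 1.29 in WT (2 UMIs per marker), and the core enzymes over 0.79 in WT (doublets kept), 0.90 in WT (equal weights), 0.75 in KD and 0.94 in WT (2 UMIs per marker). In the Nos2 Inhba gate the HIF targets were at 2.02 in WT (clusters) and 2.06 in KD (2 UMIs per marker), and the core enzymes at 1.61 in WT (thinned), 1.19 in KD and 1.36 in WT (clusters). In the tissue gate the HIF targets were at -1.21 in KD and -1.44 in WT (thinned), -1.14 in KD and -1.34 in WT (equal weights) and -1.39 in WT (clusters). Its core enzymes were at -0.80 in KD and -0.95 in WT (doublets kept), -0.92 in KD and -1.25 in WT (thinned), -1.02 in KD and -1.19 in WT (equal weights) and -1.01 in KD and -1.23 in WT (clusters). With clusters, the HIF targets of neutrophils over monocyte-macrophages were at 0.80 in KD and 0.84 in WT. Low summed counts limit dendritic and T cells, where most of the 38 genes rest on under 100 UMIs in either library. Depth per cell was not low in dendritic cells, with medians of 10821.5 UMIs in KD and 10819.5 in WT.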
